A study of Mus musculus with 36 samples.

Results

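The genes described here encode the factors that start protein synthesis on cellular mRNAs, together with 2 inhibitors of the cap-binding factor. They are 46 of the 55487 genes counted, taken by gene name: the subunits and helpers numbered eIF1 to eIF6, the eIF2B exchange factor, the eIF5A proteins and the eIF4E-binding proteins, without the kinases of eIF2 and without pseudogenes. Their mRNAs were followed through polysome fractionation of cortex from female mouse embryos at stage E14.5. A cleared lysate was spun through a sucrose gradient of 15 to 50%, which parts mRNAs by the number of ribosomes on them, and RNA of the input, the monosome fraction (mRNAs with a single ribosome) and the polysome fraction (mRNAs with several ribosomes) was sequenced. The sources used here do not say which of the 12 gradient fractions were joined.

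The 36 libraries fell into 12 groups of 3, each library from a pool of the cortices of 2 embryos. In the LoF cross, conditional heterozygotes (cHet) carried Emx1-Cre/+ and Ddx3x lox/+, and their controls carried Ddx3x lox/+ without Cre. In the T532M cross, cHet carried Emx1-Cre/+ and Ddx3x-T532M lox/+, and their controls carried Emx1-Cre/+ alone. Ddx3x encodes an RNA helicase that takes part in translation initiation. The Emx1-Cre driver recombines in dorsal telencephalic progenitors and the cells they give rise to. Interneurons, vessels, blood and meninges in the same pool were not recombined, so a pool of cHet cortex is a mixture. In bulk tissue, fewer cells of a type and less RNA per cell cannot be told apart.

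In the textbook scheme of initiation, eIF1 and eIF1A bind the small ribosomal subunit and keep it scanning, and eIF2 with GTP brings the initiator tRNA. eIF2B recharges eIF2, eIF3 is the large scaffold on the small subunit, and eIF4E, eIF4G and the helicase eIF4A bind the cap and unwind the leader. eIF5 triggers GTP hydrolysis, eIF5B joins the large subunit, and eIF6 keeps free large subunits apart. Several of these mRNAs are themselves known to be controlled at translation, through their start codons, upstream start codons or a pyrimidine run at the cap (the TOP motif).

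The start codons are shown first, because the context of the start codon is a feature that eIF1 and eIF5 are known to read. Each line gives 9 bases before the codon, the codon in capitals and 3 bases after it, 5′ to 3′, from the principal GENCODE transcript on GRCm38.
Eif1: tcgtatcgtATGtcc
Eif1b: tagtgtcgcATGtcc
Eif1ax: tttgcggccATGccc
Eif5: taagccaaaATGtct
Eif4a1: ctaaggatcATGtct
Eif4a2: tttcggatcATGtct
Eif4g2: gccgccaaaGTGgag
Eif1 (chr11:100319885-100322096, plus strand) and Eif1b (chr9:120492232-120495330, plus strand) both lacked a purine 3 bases upstream of the ATG, the position that weighs most in the context favoured by scanning ribosomes, and the other 5 starts shown have a purine there. Eif4g2 (chr7:111067750-111083030, minus strand) was annotated to start at GTG, the only member of the 46 with a first codon other than ATG. Eif5 (chr12:111538016-111546752, plus strand) carried 5 ATG triplets in a leader of 626 nt, the highest count among the members. Eif4a1 and Eif4a2, whose proteins were 89.9% identical, shared the last bases of the leader but had leaders of 16 and 348 nt.

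Start sites were then searched for a TOP-like run, defined as a C within 5 bases of the RefSeq start followed by at least 4 pyrimidines (C or T, in any order, on the coding strand only). A RefSeq start on GRCm38.p6 was at hand for 37 members; Eif2b3, Eif3e, Eif3h, Eif3i, Eif3j2, Eif4e3, Eif4ebp1, Eif4g2 and Eif6 had no entry. The run was present in 8 of the 37 (21.6%), against 20.2% of 12647 tested genes with an entry, so it was not more common among the members than elsewhere. The longest runs are printed in capitals within 30 bases around the start, of which the first 10 lie before it, with a member that has none for comparison.
Eif3f: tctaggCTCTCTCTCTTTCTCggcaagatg
Eif2s3x: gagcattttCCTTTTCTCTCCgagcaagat
Eif3l: gagttcttcttccgCTCTCTCCCacgggct
Eif2b2: ccgagcggaagttgaCCTCTCTCggcccgg
Eif2b5: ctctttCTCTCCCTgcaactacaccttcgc
Eif4b: tcccgtcggacgccgcgccaccccctcgcg
These windows lie at chr7:108934405-108934434 (Eif3f, plus strand), chrX:94212632-94212661 (Eif2s3x, minus strand), chr15:79075213-79075242 (Eif3l, plus strand), chr12:85219471-85219500 (Eif2b2, plus strand), chr16:20498807-20498836 (Eif2b5, plus strand) and chr15:102073763-102073792 (Eif4b, plus strand). By this definition Eif3f had the longest run, 15 pyrimidines, which begins before the RefSeq start, and a leader of only 15 nt. A run is counted from a C within 5 bases of the start. The pyrimidines printed directly before the capitals in Eif2s3x and Eif2b5 are therefore left out, and their unbroken tracts are longer than marked. Eif4b, which earlier work lists among TOP mRNAs, had no run at this start.

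Libraries held 36999365 to 57935512 read pairs. The members took 1.26 to 1.38% of read pairs in input, 1.42 to 1.64% in monosomes and 0.913 to 1.06% in polysomes, ranges that did not overlap. Mitochondrial transcripts took 1.72 to 3.62%, 3.82 to 10.2% and 0.0194 to 0.0524% in the same order. The Y-linked paralog Eif2s3y had at most 25 read pairs in any library. The dorsal cortex markers Emx1, Pax6, Eomes, Tbr1 and Neurod6 were present in all inputs, at 76.5 CPM or more (CPM, read pairs scaled to a common library size). The choroid plexus gene Ttr exceeded 10 CPM in the input of LoF control pools 1 and 3, LoF cHet pool 1 and T532M cHet pool 1. The targeted gene Ddx3x, counted over its whole span, ranged in LoF monosomes from 178.2 to 255.1 CPM in cHet and from 281.3 to 344.0 CPM in controls, and in T532M polysomes from 4117 to 5860 CPM in cHet and from 2268 to 3466 CPM in controls. None of its 6 differences between genotypes passed (lowest adjusted p = 0.264).

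Of the 46 members, 45 passed the filter on low counts in both crosses. Eif4e3, a cap-binding paralog (chr6:99625135-99666771, minus strand), was listed at 0 in all 36 libraries. Its span lies within that of the predicted gene Gm20696 on the same strand, and the counting command in the file header does not carry the option that assigns a read pair to more than 1 overlapping gene. The part of that setting in the 0 was not tested, and the 0 is not read here as a level of expression. Altogether 16 members overlap another gene model on their strand, such as Snord66 within Eif4g1 or Snora28 within Eif5. Counts of Eif3j1 and Eif3j2 are uncertain, since the proteins are 99.2% identical and 54.8% and 91.9% of the 50-base windows of their transcripts recur in other genes. The share was 65.3% for Eif4a1, 39.95% for Eif3m, 36.2% for Eif2s3x and 31.6% for Eif1.

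In the input of the 6 control pools, levels per kilobase of spliced transcript ran from 494 to 0.416 (medians). Eif5a, the elongation and termination factor that carries hypusine, was highest with a median of 494 CPM per kb (467 to 519). It overlapped the RNA helicase Eif4a1 at 457 (442 to 474). Eif4a1 lay above Eif1 at 378 (345 to 418), and no Eif1 library reached it. Then came Eif3h at 330, Eif3k at 293, Eif4g2 at 251 and Eif3f at 224, where each range overlapped that of the next. At the low end were Eif3a at 7.33 (4.26 to 9.64), Eif5b at 3.41 (1.98 to 4.28), the inhibitor Eif4ebp1 at 2.96 (2.61 to 3.22), Eif5a2 at 2.44 (1.39 to 3.49) and Eif3j2 at 0.416 (0.299 to 0.581). Within eIF3 the medians of this measure ran from 330 for Eif3h to 7.33 for Eif3a, even without Eif3j1 and Eif3j2. The measure divides read pairs counted over gene spans with introns by the spliced length of 1 transcript. Among the low members of LoF controls, Eif3a exceeded input by 2.56 in monosomes and 5.21 in polysomes, and Eif5b by 1.75 and 4.96 (log2). Eif5a2 was called higher than input in monosomes only, and Eif4ebp1 and Eif3j2 in neither fraction. Whether input understates such mRNAs was not tested.

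The first comparison asked where these mRNAs sat in the gradient of control cortex. Members parted to both sides. In LoF controls 19 of 45 were higher in polysomes than in monosomes and 19 were lower, and in T532M controls 21 were higher and 18 lower. Over all genes tested, 36.4% were higher and 44.9% lower in LoF controls, and 36% higher and 43.9% lower in T532M controls, so that the members' shares are close to the background. The median member differed by 0.14 (log2) in LoF and 0.09 in T532M controls, beside -0.31 in both crosses over all genes. The range among members was wide, from -2.50 to 3.95 in LoF controls. The same 19 members were higher and the same 18 lower in both crosses, none was called in opposite directions, and the median absolute difference between crosses was 0.10.

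**Figure D1:**
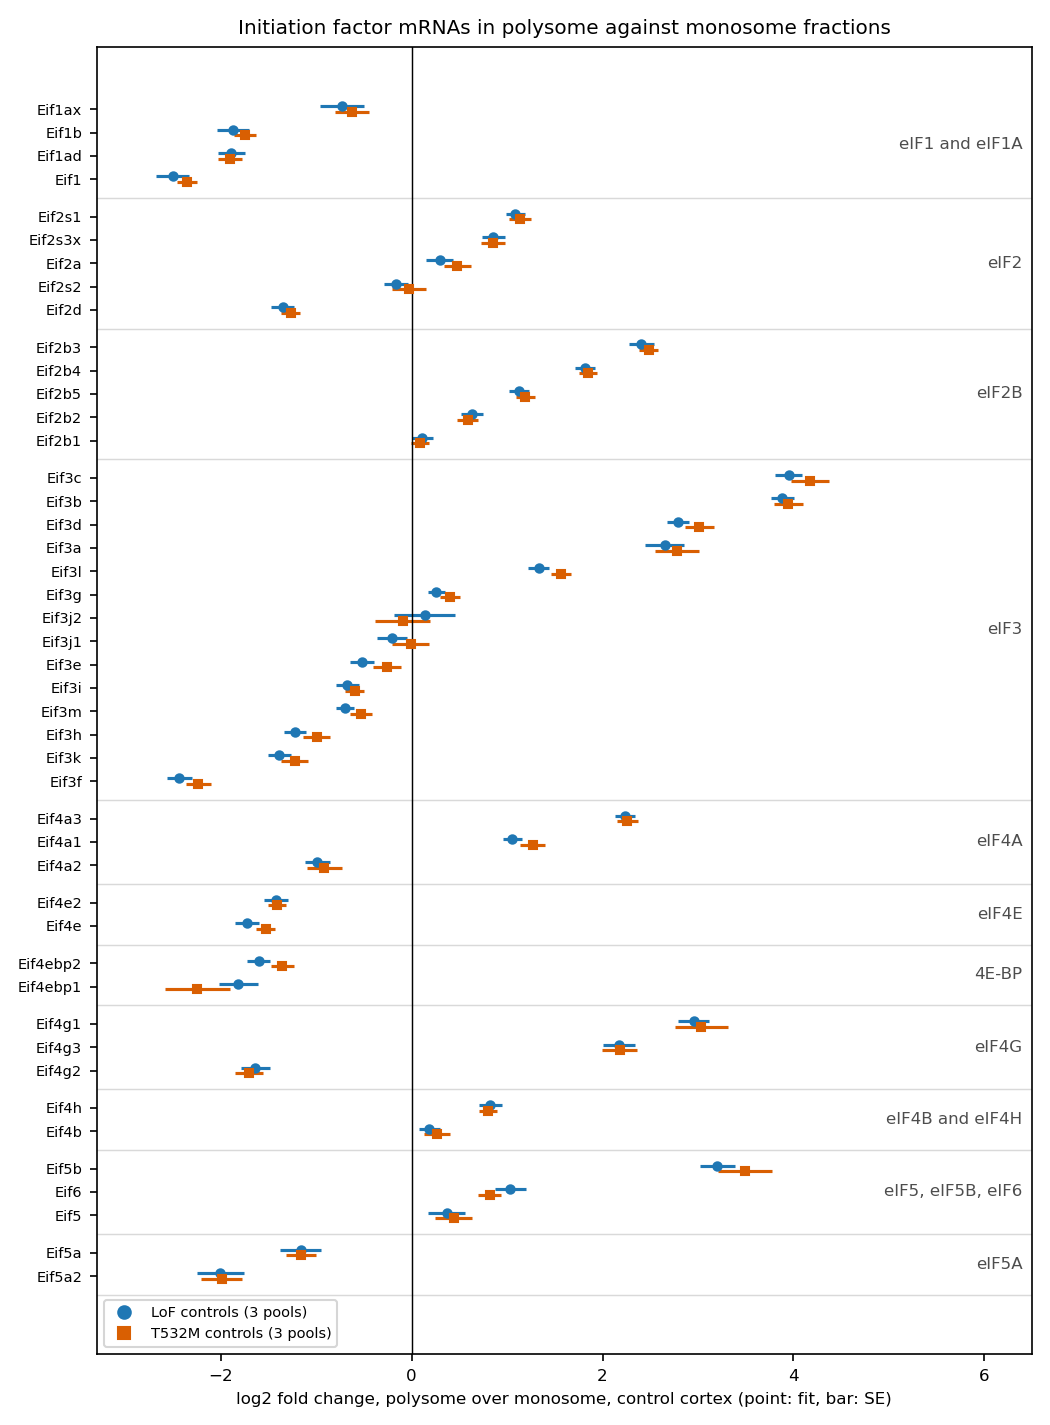
Log2 fold change of polysome over monosome for 45 members in LoF controls (circles) and T532M controls (squares), grouped by role, with bars of 1 SE. Eif3c and Eif3b lie near 4 in both crosses, Eif1 and Eif3f below -2, and the circles and squares of nearly every gene lie side by side.

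All 4 members of the eIF1 group were lower in polysomes than in monosomes in both crosses. In monosomes against input, 0 were higher and 2 lower in LoF controls, and 0 higher and 3 lower in T532M controls. Eif1, which guards the choice of the start codon, measured 429.8, 446.9 and 428.8 CPM in the 3 monosome libraries of LoF controls and 68.79, 86.83 and 74.42 CPM in polysomes. Every polysome library lay far below every monosome library, and the log2 fold change was -2.50 ± 0.17 (SE, adjusted p = 6.42e-11). Its paralog Eif1b gave -1.87 ± 0.17, Eif1ad, a nuclear protein with an eIF1A-like domain, gave -1.89 ± 0.14, and Eif1ax, the scanning factor eIF1A itself, gave -0.73 ± 0.23. Eif1ax differed among monosome pools, at 183.7, 113.3 and 155.0 CPM. Without control pool 1 Eif1ax was not called (-0.48, adjusted p = 0.14), nor without the 3 pools that held Ttr (-0.16).

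eIF2 was divided. Eif2s1, the alpha subunit whose phosphorylation limits initiation, was higher in polysomes by 1.09 ± 0.10 in LoF and 1.13 ± 0.11 in T532M controls. The gamma subunit Eif2s3x was higher by 0.85 ± 0.12 and 0.85 ± 0.13. The beta subunit Eif2s2 passed in neither cross, at -0.16 ± 0.13 and -0.03 ± 0.18. Eif2a, a tRNA-binding factor outside the heterotrimer, passed in T532M controls only, at 0.48 ± 0.14 against 0.29 ± 0.14. Eif2d, which can deliver tRNA without GTP, was lower by -1.35 ± 0.12 and -1.27 ± 0.10, at 52.04, 51.48 and 53.84 CPM in LoF monosomes and 19.15, 22.36 and 20.08 CPM in polysomes. The call for Eif2a in T532M controls was lost without control pool 2 (0.30, adjusted p = 0.111). Of the 3 mRNAs of the heterotrimer, 2 were thus called higher in polysomes than in monosomes and 1 was not called. Against input, Eif2s1 was lower in monosomes and not called in polysomes in both crosses (-1.07 and 0.02 in LoF controls). Eif2s3x was not called in monosomes and higher in polysomes in both crosses.

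For the exchange factor eIF2B, 4 of 5 subunits were higher in polysomes than in monosomes and none was lower, in either cross. Eif2b3 (chr4:117019402-117087306, plus strand), the gamma subunit, measured 9.82, 10.4 and 9.63 CPM in LoF monosomes and 56.2, 52.6 and 49.6 CPM in polysomes. The groups lay well apart, with a log2 fold change of 2.41 ± 0.13 (adjusted p = 3.25e-12). Eif2b4 followed at 1.82 ± 0.11, the catalytic subunit Eif2b5 at 1.12 ± 0.10 and Eif2b2 at 0.63 ± 0.11. Eif2b1, of the regulatory part, did not pass at 0.11 ± 0.11. All 5 were lower in monosomes than in input in both crosses. In polysomes against input, 2 were higher (Eif2b3, Eif2b4), 2 were lower (Eif2b1, Eif2b2) and Eif2b5 was not called, in both crosses.

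eIF3 showed the widest spread within a group. Of 14 genes, 6 were higher in polysomes in both crosses, and 6 were lower in LoF and 5 in T532M controls. Eif3c, part of the core that contacts eIF1 and eIF5, measured 87.65, 107.6 and 98.46 CPM in LoF monosomes and 1628, 1293 and 1617 CPM in polysomes. Its log2 fold change of 3.95 ± 0.14 was the largest among the members (adjusted p = 1.17e-14), and it was 4.18 ± 0.20 in T532M controls. The scaffold Eif3b (chr5:140419328-140443360, plus strand) measured 46.64, 56.44 and 49.40 CPM against 789.5, 715.0 and 748.7 CPM, a difference of 3.89 ± 0.12. The cap-contacting subunit Eif3d followed with 2.79 ± 0.11, the largest subunit Eif3a with 2.65 ± 0.20, Eif3l with 1.33 ± 0.11 and Eif3g with 0.26 ± 0.09. The small value of Eif3g was not called without control pool 2 (0.24) or control pool 3 (0.26).

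At the other end was Eif3f (chr7:108934417-108942951, plus strand), whose start site carries the pyrimidine run of 15. It measured 540.7, 627.0 and 588.2 CPM in LoF monosomes and 105.7, 116.4 and 103.1 CPM in polysomes. Its log2 fold change was -2.43 ± 0.13 in LoF (adjusted p = 1.18e-12) and -2.23 ± 0.14 in T532M controls. Eif3k gave -1.39 ± 0.12, Eif3h -1.22 ± 0.12, Eif3m -0.69 ± 0.10, Eif3i -0.67 ± 0.12 and Eif3e -0.52 ± 0.13 in LoF controls. Of these Eif3e did not pass in T532M controls, at -0.25 ± 0.15. The subunits that were higher are those of long coding regions for the most part, from 960 nt in Eif3g to 4032 nt in Eif3a, and those that were lower ran from 654 nt in Eif3k to 1335 nt in Eif3e. Eif3j1 and Eif3j2, copies of the loosely bound subunit, passed in neither cross.

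The helicase eIF4A gave the sharpest contrast between near-identical proteins. Eif4a1 (chr11:69666936-69672423, minus strand) measured 281.7, 361.0 and 317.9 CPM in LoF monosomes and 671.7, 670.8 and 653.5 CPM in polysomes, higher by 1.06 ± 0.10 (adjusted p = 8.46e-09). Eif4a2 (chr16:23107444-23114136, plus strand) went the other way, from 393.4, 432.8 and 445.2 CPM to 204.6, 229.5 and 205.5 CPM, lower by -0.99 ± 0.13 (adjusted p = 1.01e-06). Neither pair of ranges overlapped. Against input in LoF controls, Eif4a1 gave -1.36 in monosomes and -0.303 in polysomes, and Eif4a2 gave 0.737 and -0.255. Relative to input the pair thus parted in monosomes and lay close together in polysomes. Coding lengths were 1218 and 1221 nt. Both levels are uncertain: windows that recur in other genes made up 65.3% of Eif4a1 and 15.6% of Eif4a2. On their strands, 3 gene models overlap Eif4a1 and 6 overlap Eif4a2. The part of either in the counts was not tested. Eif4a3, the helicase of the exon junction complex with 66.3% identity to Eif4a1, was higher by 2.23 ± 0.11, from 29.75, 35.21 and 30.75 CPM to 156.7, 145.3 and 147.5 CPM. In T532M controls the 3 values were 1.27 ± 0.13, -0.92 ± 0.18 and 2.26 ± 0.11.

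**Figure D2:**
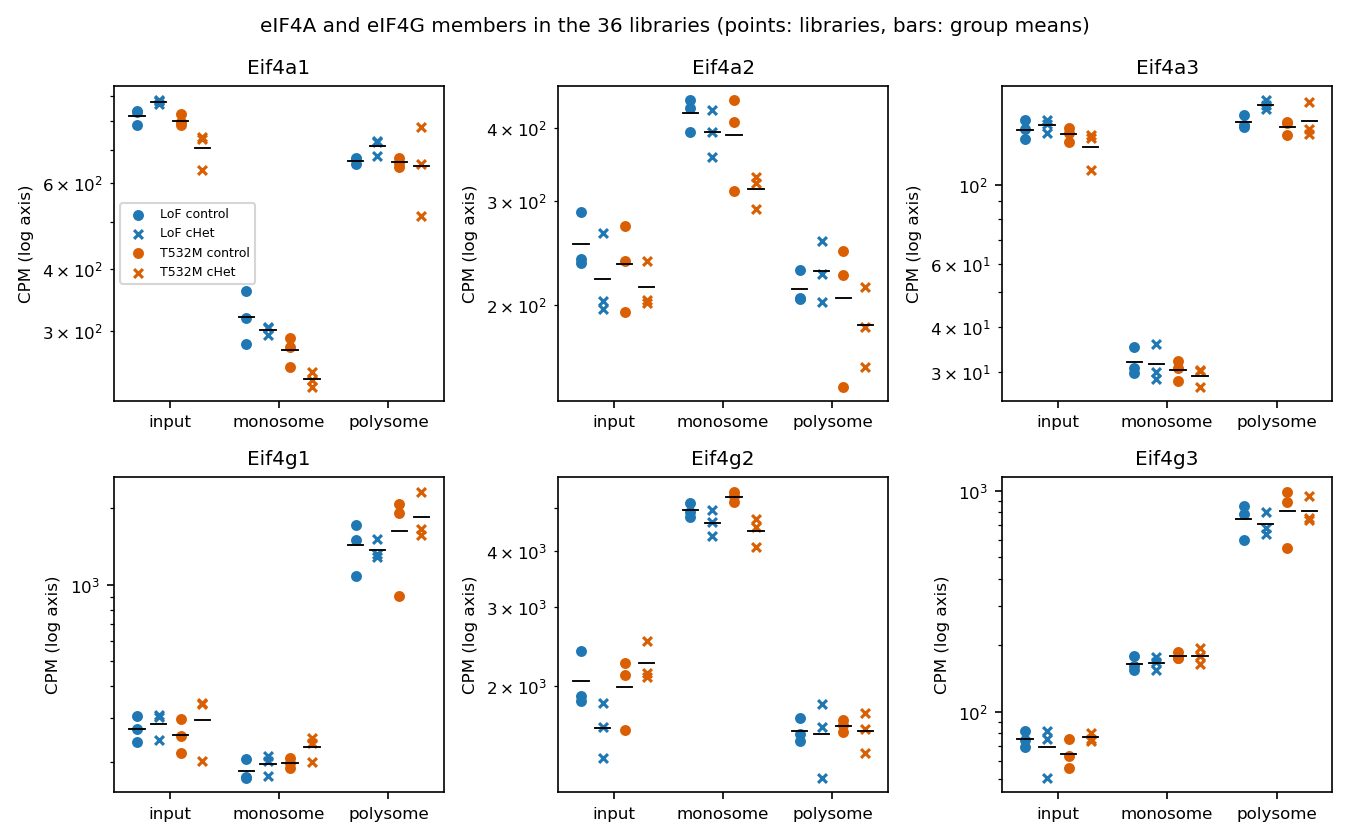
CPM on log axes of the 3 eIF4A and 3 eIF4G genes in the 36 libraries, by fraction, cross (colour) and genotype (circles, controls; crosses, cHet), with bars at group means. Eif4a1 and Eif4a3 drop from input to monosomes and return in polysomes, whereas Eif4a2 and Eif4g2 peak in monosomes, and control and cHet points of a fraction lie close to each other beside these differences.

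The tested cap-binding proteins and their inhibitors were all lower in polysomes than in monosomes. In LoF control monosomes against input, Eif4ebp2 was higher, Eif4ebp1 was lower, and Eif4e and Eif4e2 were not called. Eif4e, which binds the cap and is the target of mTOR signalling through the binding proteins, was lower in polysomes by -1.73 ± 0.12, from 115.3, 115.8 and 112.5 CPM to 31.38, 39.37 and 32.92 CPM. Eif4e2, a cap-binding protein that acts in repression, was lower by -1.42 ± 0.12. The inhibitor Eif4ebp2, the main brain form, was lower by -1.60 ± 0.12, from 1038, 1233 and 1053 CPM to 344.6, 380.3 and 369.0 CPM. Eif4ebp1 was scarce, at 3.40 to 5.22 CPM in monosomes and 1.08 to 1.35 CPM in polysomes, and was lower by -1.82 ± 0.20. Each value belongs to LoF controls, and the same 4 genes were called lower in T532M controls.

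The scaffold eIF4G divided by type. Eif4g1, which bridges cap, helicase and eIF3, measured 173.5, 207.1 and 175.0 CPM in LoF monosomes and 1501, 1086 and 1720 CPM in polysomes, higher by 2.95 ± 0.16. Its relative Eif4g3 was higher by 2.17 ± 0.17. Eif4g2, also called DAP5, lacks the part that binds eIF4E and was the member with most read pairs, at 4769, 5125 and 4905 CPM in LoF monosomes. It fell to 1502, 1695 and 1556 CPM in polysomes, lower by -1.64 ± 0.15 (adjusted p = 5.25e-09), and by -1.70 ± 0.15 in T532M controls. In T532M control polysomes Eif4g1 measured 1913, 2085 and 903.7 CPM and Eif5b 1203, 1385 and 542.0 CPM, with pool 3 low for both. The helper Eif4h was higher by 0.82 ± 0.12, and Eif4b did not pass at 0.18 ± 0.11.

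Among the late factors, Eif5b was higher by 3.20 ± 0.18, from 93.72, 112.3 and 104.6 CPM to 1037, 696.0 and 1129 CPM. Eif6 was higher by 1.03 ± 0.16 although its coding region has only 735 nt. Eif5 passed in T532M controls only, at 0.44 ± 0.20 (adjusted p = 0.0496) against 0.37 ± 0.20 in LoF controls, and not without control pool 1 (0.43, adjusted p = 0.0519), control pool 3 (0.39) or cHet pool 2 (0.44). Both eIF5A genes were lower, Eif5a by -1.16 ± 0.22 and Eif5a2 by -2.003 ± 0.25.

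Paralogs were compared within libraries, as the log2 ratio of their CPM in the 6 control monosome and 6 control polysome libraries of both crosses, with exact two-sided permutation tests adjusted over the 5 pairs. The ratio of Eif4a1 to Eif4a2 was 1.74 ± 0.21 in input, -0.45 ± 0.14 in monosomes and 1.68 ± 0.28 in polysomes (SD, n = 6). Monosome values ran from -0.61 to -0.26 and polysome values from 1.39 to 2.21, without overlap. The shift was 2.05 in LoF and 2.21 in T532M controls (exact permutation p = 0.00216, the smallest possible when libraries are shuffled freely between fractions, adjusted p = 0.00361). Eif1 exceeded Eif1b more in monosomes (1.57 ± 0.15) than in polysomes (0.95 ± 0.12), a shift of -0.62 (SD, n = 6, the same exact permutation p). Eif5a exceeded Eif5a2 by 3.15 ± 0.28 in monosomes and 4.02 ± 0.15 in polysomes (SD, n = 6, the same exact permutation p). For Eif3j1 over Eif3j2 the shift of -0.09 did not pass (exact permutation p = 0.699), nor did that of -0.56 for Eif4ebp1 over Eif4ebp2 (exact permutation p = 0.143). Pools of a cross supply both fractions, and the test treats the libraries as independent. Neither the pairing of fractions within a pool nor the cross entered it, so its p-values are not those of a paired design.

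Coding length moved with position in the gradient. Across 14452 genes of the LoF fit, the log2 coding length and the polysome over monosome fold change had Pearson's r = 0.62 (Spearman's rho = 0.64), and over the 45 members r = 0.72 (rho = 0.71). These are correlations across genes that share the same libraries. All genes were therefore ranked by coding length in 10 bins of like size, and each member was set beside the median of its bin. In the shortest bin (27 to 525 nt) the median gene had -2.27 and in the longest 1.82. Of the members, 15 lay above the middle 50% of their bin in LoF controls, 25 within it and 5 below. In T532M controls the counts were 17, 24 and 4.

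**Figure D3:**
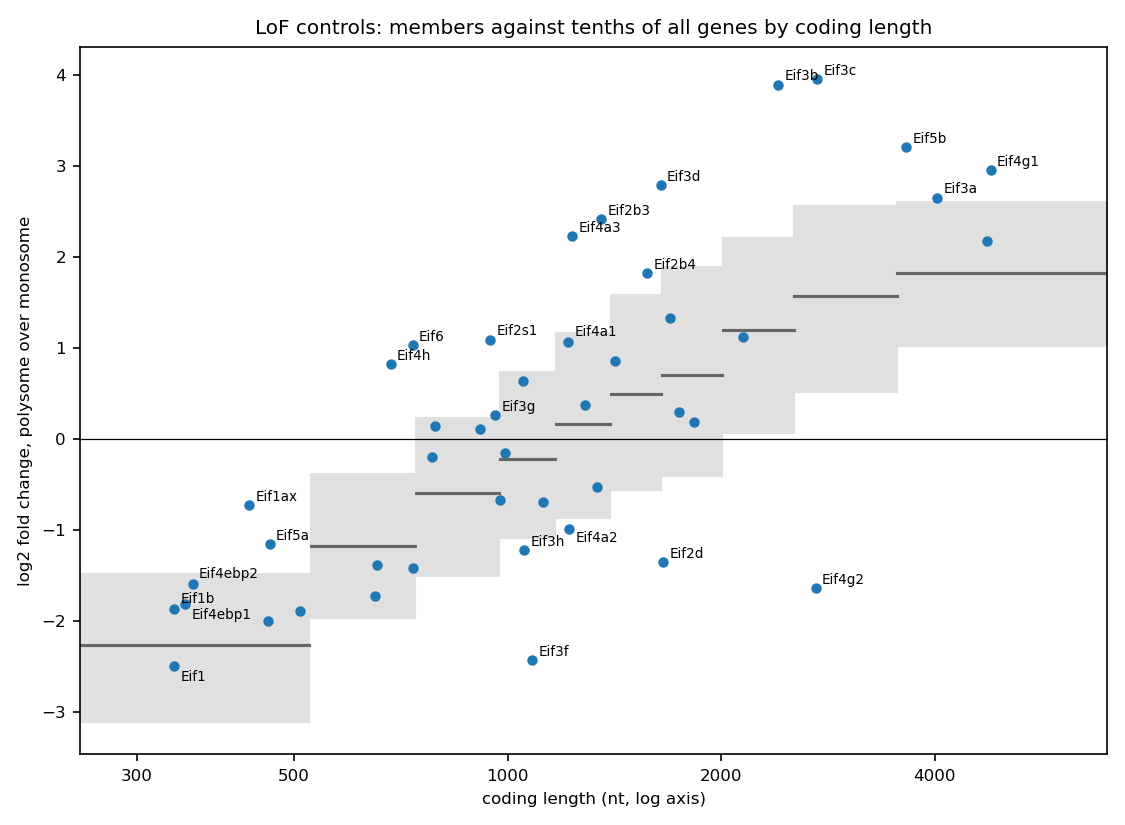
Log2 fold change of polysome over monosome in LoF controls against coding length (log axis) for 45 members (points), with medians (lines) and the middle 50% (shaded) of all genes in 10 bins of coding length. Names are given for the 15 members above and the 5 below the shaded range and for paralogs within it; Eif3b, Eif3c and Eif3d stand above it, and Eif4g2, Eif3f and Eif2d below.

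Beside genes of like length, the short Eif1 was unremarkable: its -2.50 lay 0.23 under the median of its bin, at the 43.4th percentile. The members furthest below were Eif4g2, 3.21 under the median of its bin and at the 2.7th percentile, Eif3f, 2.21 under, and Eif2d, 2.05 under. Eif4a2 lay 1.15 under and Eif3h 1.00 under. Those furthest above were Eif3b (2.7), Eif3c (2.38), Eif3d (2.30), Eif2b3 (2.25), Eif6 (2.21), Eif4a3 (2.07) and Eif4h (2.00). Against input in polysomes, Eif3b, Eif3c, Eif3d and Eif2b3 were higher in both crosses and Eif4a3 was not called. Eif6 and Eif4h were lower than input in both fractions and both crosses (-1.03 and -0.58 in LoF polysomes). The 4 members that earlier work names as TOP mRNAs, Eif3e, Eif3f, Eif3h and Eif4b, all lay under the median of their bin in both crosses, by a median of 0.84 in LoF and 0.58 in T532M controls. Among all members, 15 of 45 did so in LoF and 14 in T532M controls.

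Position in the gradient overlapped widely between members with a start run, printed or not, and members without one. Of the mRNAs that earlier work names as TOP, Eif3f had a run and Eif4b none, and Eif3e and Eif3h had no start entry. The split therefore cannot show whether TOP mRNAs differ in position. The 8 members with a run had a median of 0.99 in LoF controls, from -2.43 (Eif3f) to 3.89 (Eif3b), and the 29 without a run had 0.11, from -2.50 to 3.95. Set against their bins of coding length, the medians were 0.51 and 0.41. Members with an upstream ATG in the leader (15) had a median of 0.36 over their bin, and members without one (30) had 0.65. Leader length had r = -0.01 with the fold change over the 45 members.

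Input served as the second reference. Against input, 15 members were higher and 24 lower in LoF polysomes (36.5% and 42.8% of all genes), and 15 higher and 20 lower in T532M polysomes (36.6% and 42.4%). In monosomes against input, 11 were higher and 23 lower in LoF (32.2% and 30.6% of all genes) and 11 higher and 22 lower in T532M controls (32.1% and 31%). The members' share of lower calls in monosomes thus stood above that of all genes, at 23 of 45 beside 30.6%. In both crosses 7 members exceeded input in both fractions: Eif2a, Eif3a, Eif3j1, Eif4g3, Eif4b, Eif5 and Eif5b. Joint patterns of monosomes and polysomes, here and below, were not counted over all genes. Eif3a reached 5.21 ± 0.23 in LoF polysomes and 2.56 ± 0.20 in monosomes over input, and Eif5b 4.96 ± 0.20 and 1.75 ± 0.17.

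Eif2b3, Eif2b4, Eif3b, Eif3c, Eif3d and Eif3l were lower in monosomes and higher in polysomes than in input in both crosses. In LoF controls Eif3b was the lower of the eIF3 core pair in monosomes, at -2.22 ± 0.11 beside -1.26 ± 0.13 for Eif3c. Eif3c was the higher in polysomes, at 2.69 ± 0.13 beside 1.66 ± 0.11 for Eif3b. The reverse, higher in monosomes and lower in polysomes, held for Eif4ebp2 in both crosses (0.90 ± 0.12 and -0.70 ± 0.12 in LoF controls) and in LoF controls also for Eif4g2 and Eif5a2. Eif3f stayed near input in monosomes (0.07 ± 0.12) and was depleted in polysomes (-2.37 ± 0.13). The GC content of the spliced transcript moved with the monosome values: r = -0.61 over the members in both crosses, and -0.46 and -0.50 over all genes. Of 16 members with under 45% GC, 12 lay above input in LoF monosomes, and of the other 29 only 5 did; the bound of 45% was chosen after the values were seen. Eif3a has 44.5% GC and Eif3b 55.9%. The part of base composition in these values was not tested.

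Regulators around the factors were counted as well, from a list of 35 genes (kinases and phosphatases of eIF2, the mTOR pathway, poly(A)-binding proteins, recycling factors), of which 34 were tested. In LoF controls 20 were higher and 12 lower in polysomes than in monosomes, and in T532M controls 19 and 12. Over all genes these shares were 36.4% and 44.9% in LoF and 36% and 43.9% in T532M controls. The 6 with the largest differences in LoF controls were Rptor (3.31 ± 0.12), a scaffold of mTOR complex 1, Atf4 (-3.24 ± 0.13), the stress transcription factor with upstream reading frames, Ddx3x (2.99 ± 0.23), Denr (-2.66 ± 0.11), a reinitiation factor, Tsc2 (2.66 ± 0.12), which restrains mTOR, and Dhx29 (2.37 ± 0.14), a scanning helicase. Atf4 measured 429.4 ± 9.48 CPM in monosomes and 45.4 ± 2.98 CPM in polysomes (SD, n = 3).

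The second comparison set cHet against control in each cross. In the LoF cross only cHet carried Cre, so an effect of Ddx3x loss cannot be told apart from one of Cre. In the T532M cross both carried Cre, and only cHet carried a lox allele. No member passed in any of the 6 comparisons of cHet with control, with edgeR's quasi-likelihood test and no term for the pool number. Over all genes tested, 0% were called in LoF input, 0.0108% in LoF monosomes, 0% in LoF polysomes, 0.00548% in T532M input, 1.03% in T532M monosomes and 0% in T532M polysomes. At an unadjusted p under 0.05, the counts of members in the same order were 6, 1, 0, 3, 9 and 0 of 45, which is 13.3%, 2.22%, 0%, 6.67%, 20.0% and 0%. For all genes the shares were 10.8%, 4.198%, 3.23%, 10.7%, 11.8% and 7.92%. The median SE of a member ran from 0.12 to 0.13 over the 6 comparisons, so that a change of about 0.25 is the size of 2 SE.

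**Figure D4:**
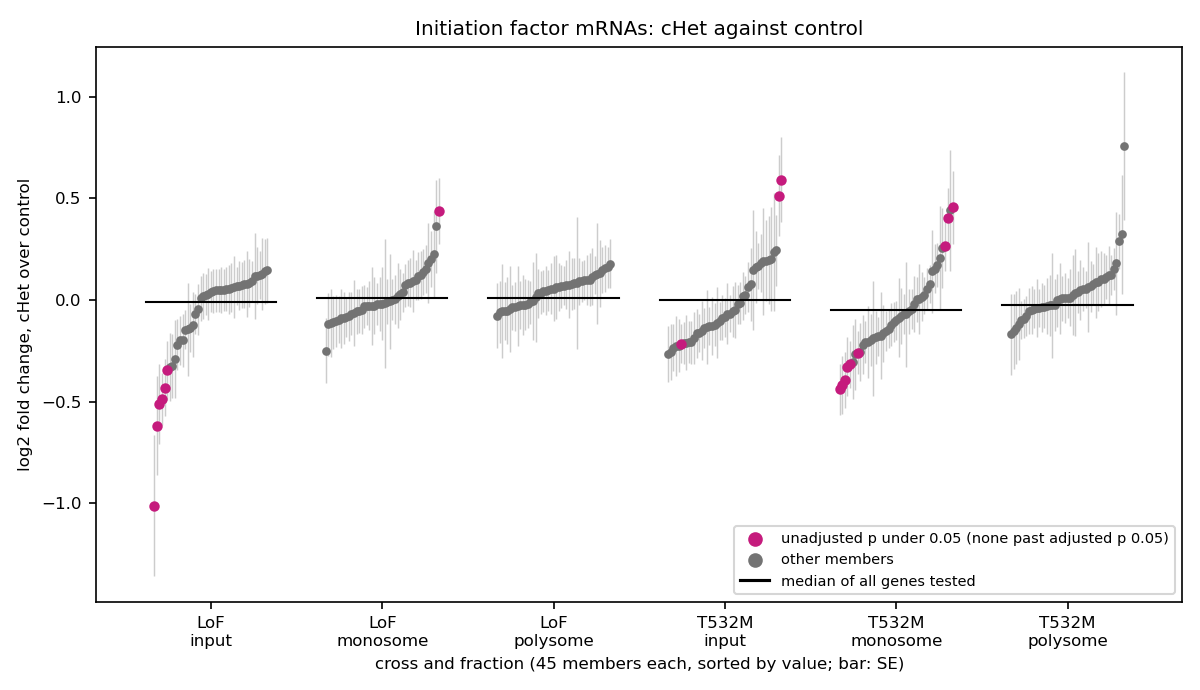
Log2 fold change of cHet over control for 45 members in each cross and fraction, sorted by value, with bars of 1 SE and a line at the median of all genes. Pink points had an unadjusted p under 0.05, and none passed after adjustment; the values in LoF polysomes lie between -0.08 and 0.18, the narrowest of the 6 ranges.

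In LoF polysomes, the fraction with several ribosomes, members lay between -0.08 and 0.18. The smallest p belonged to Eif4a3 at 0.16 ± 0.10, Eif3i at 0.18 ± 0.12 and Eif2b2 at 0.16 ± 0.11 (adjusted p = 1 for each). In LoF monosomes Eif6 gave 0.44 ± 0.16 (adjusted p = 1.00), Eif1ax 0.36 ± 0.23 and Eif1 -0.25 ± 0.16. Eif1 measured 429.8, 446.9 and 428.8 CPM in control and 374.4, 386.9 and 337.1 CPM in cHet monosomes, without overlap. Without the 3 LoF pools that held Ttr, which leaves a single control pool that is assumed to vary like the others, 3 members were called higher in cHet monosomes: Eif1ax (1.07), Eif5a (0.86) and Eif6 (0.83, adjusted p = 0.00804). That setting called 4.96% of all genes. These 3 differed among pools of a genotype: Eif5a measured 375.5, 248.5 and 335.2 CPM in control and 216.1, 428.3 and 477.1 CPM in cHet monosomes, and the remaining control was its lowest.

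In LoF input the 3 smallest p belonged to Eif2s2, Eif2a and Eif3j2. Eif2s2 measured 100.7, 79.1 and 70.0 CPM in control and 50.6, 68.0 and 59.7 CPM in cHet, groups that did not overlap, with a log2 fold change of -0.49 ± 0.13 (unadjusted p = 0.00111, adjusted p = 0.236). Eif2a gave -0.43 ± 0.14 and Eif3j2 -1.01 ± 0.35, the latter from 0.530 CPM in cHet and 1.07 CPM in controls. In the authors' deposited table for LoF, 1 member was under an adjusted p of 0.05 in the input column, Eif2s2 with a log2 fold change of -0.46 (adjusted p = 0.0482). That column held 70 of 21859 listed genes under 0.05. No member was in the LoF monosome or polysome column (0 and 1 genes). Nor was any in the T532M input, monosome or polysome column (123, 51 and 1 of 13841 listed genes). DESeq2 on the counts also called Eif2s2 (adjusted p = 0.0452), among 0.485% of all genes.

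GC content moved with the input values. In LoF input, all 16 members with under 45% GC lay below 0, with a median of -0.31, and 27 of the other 29 lay above 0, with a median of 0.06. Over the 45 members r = 0.77 between GC content and the LoF input difference, beside 0.42 over 14446 genes. In T532M input the direction was opposite: 11 of the 16 lay above 0 and 24 of the 29 below, with r = -0.53 over the members and -0.25 over all genes. Of the 6 members with the 3 smallest p in the input of either cross, 5 had under 45% GC: Eif5a2 with 38.8%, Eif3j2 with 40.1%, Eif5 with 41.7%, Eif2s2 with 42.1% and Eif2a with 43.6%. The other was Eif3i with 52.9%. In the monosome and polysome comparisons the members' r lay between 0.04 and 0.15. The part of GC content in the input differences was not tested.

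**Figure D5:**
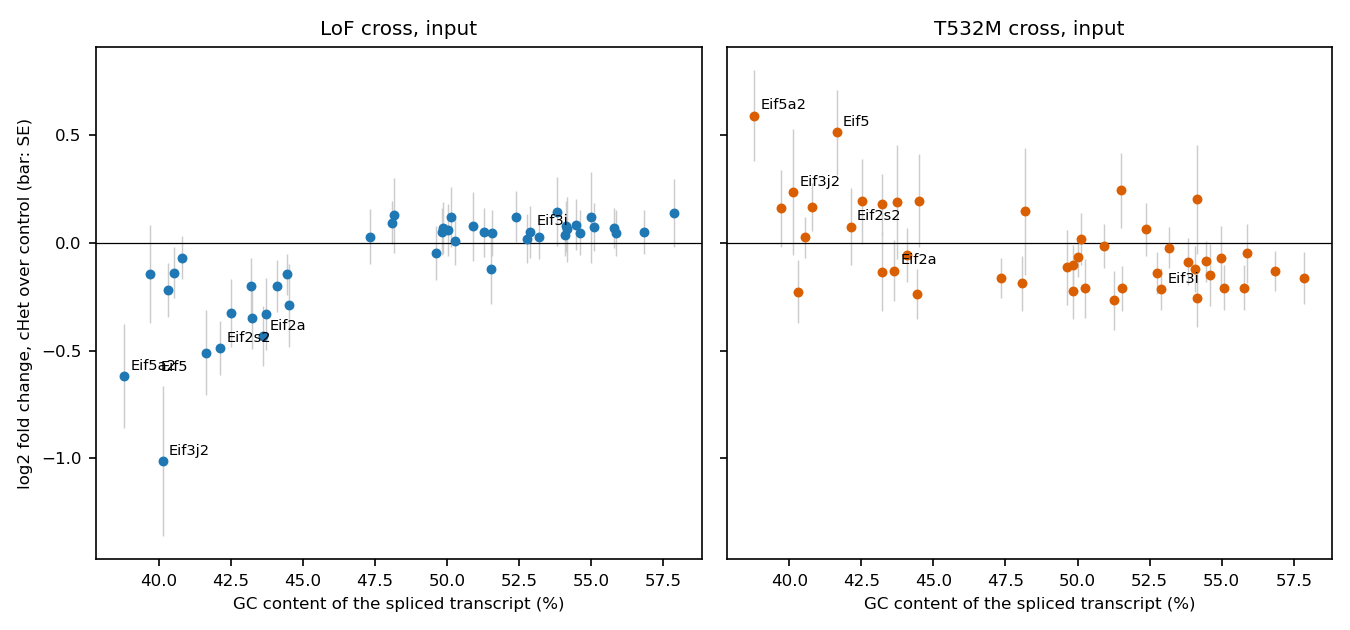
Log2 fold change of cHet over control in input against the GC content of the spliced transcript for 45 members, in the LoF cross (left) and the T532M cross (right), with bars of 1 SE. In LoF all members under 45% GC lie below 0, and in T532M most of them lie above it.

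In T532M input the 3 smallest p belonged to Eif5a2 at 0.59 ± 0.21 (adjusted p = 0.356), Eif5 at 0.51 ± 0.20 and Eif3i at -0.22 ± 0.10. Eif5 measured 92.1, 187.3 and 152.6 CPM in control and 254.4, 199.7 and 162.6 CPM in cHet, and the groups overlapped. In T532M polysomes Eif3b gave 0.29 ± 0.14 (adjusted p = 0.628), Eif4ebp1 0.76 ± 0.36 and Eif3l 0.15 ± 0.10.

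T532M monosomes held the most members at an unadjusted p under 0.05. Of the 9, 6 were lower in cHet (Eif2s3x, Eif2a, Eif4b, Eif3m, Eif2b2, Eif3e) and 3 higher (Eif5a, Eif1ax, Eif6). Eif2s3x (chrX:94188707-94212862, minus strand) measured 80.98, 68.59 and 90.32 CPM in control and 56.34, 56.88 and 63.58 CPM in cHet, without overlap, at -0.44 ± 0.13 (adjusted p = 0.128). In this comparison control and cHet pools of the same number deviated together, with correlations of 0.234, 0.308 and 0.287. For the same numbers they were -0.427, 0.161 and -0.263 in T532M input and 0.0948, 0.448 and 0.536 in T532M polysomes. With the number as a replicate block edgeR called Eif2s3x lower (-0.44, adjusted p = 0.0405) and no other member, among 1.91% of all genes. DESeq2 called Eif2s3x (-0.46, adjusted p = 0.0232), Eif4b (adjusted p = 0.0488) and Eif3m (adjusted p = 0.0498), among 3.09% of all genes. Eif4b measured 933.5, 755.4 and 995.8 CPM in control and 703.7, 677.8 and 662.3 CPM in cHet, at -0.39 ± 0.14 (adjusted p = 0.237), and Eif2a gave -0.42 ± 0.14 (adjusted p = 0.226). In control pool 2 each of these 3 mRNAs was the lowest and Eif5a and Eif1ax the highest of the controls, on the side of cHet. Without that pool 4 members were called: Eif2s3x (-0.54), Eif5a (0.65), Eif1ax (0.69) and Eif4ebp1 (0.91), among 3.42% of all genes. The members' monosome differences moved with coding length (r = -0.47 over members, -0.15 over all genes), and the 3 that were higher have coding regions of at most 735 nt.

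In the LoF cross the same 6 mRNAs lay between -0.10 and 0.04 in monosomes. The difference between the crosses itself did not pass for any of them; for Eif3m it was 0.35 ± 0.14 (unadjusted p = 0.0215, adjusted p = 0.667) and for Eif2s3x 0.35 ± 0.18 (adjusted p = 0.749). Eif6 was higher in cHet monosomes in both crosses before adjustment, at 0.44 ± 0.16 in LoF and 0.27 ± 0.12 in T532M.

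Changes of loading, the genotype effect in polysomes minus that in monosomes or in input, called no member in either cross. Of all genes, 0% and 0.0108% were called in LoF and 0.0603% and 0% in T532M. The members at an unadjusted p under 0.05 numbered 0 and 4 in LoF and 6 and 3 in T532M. For all genes the shares at that p were 3.02% and 6.87% in LoF and 6.85% and 6.10% in T532M. Relative to monosomes, T532M polysomes gained most for Eif2s3x (0.54 ± 0.18, adjusted p = 0.505), Eif2a (0.51 ± 0.20) and Eif4b (0.50 ± 0.19), whose polysome levels themselves differed by 0.09 to 0.11 between genotypes. Relative to input, LoF polysomes gave 0.57 ± 0.18 for Eif2s2, 0.55 ± 0.20 for Eif2a and 1.09 ± 0.48 for Eif3j2 (adjusted p = 0.715 for each), the members that were lower in LoF input, and r with GC content was -0.72.

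Between crosses, the LoF effect minus the T532M effect called 0 members in input, monosomes and polysomes (0.0105%, 0% and 0% of 19121 genes), and 5, 1 and 0 members had an unadjusted p under 0.05, beside 15.9%, 6.69% and 5.59% of all genes. The lowest adjusted p were in input, for Eif5a2 at -1.23 ± 0.35 (adjusted p = 0.0770) and Eif5 at -1.04 ± 0.30 (adjusted p = 0.0786), and DESeq2 called both (adjusted p = 0.0282 and 0.0302) among 3.77% of all genes. Eif3j2 followed at -1.27 ± 0.46. In polysomes the 3 smallest p belonged to Eif4ebp1 (-0.74 ± 0.44), Eif2b1 (0.20 ± 0.14) and Eif4e2 (0.21 ± 0.15). LoF controls lacked Cre and T532M controls carried it, so allele and type of control cannot be told apart in these differences. Of the 34 regulators tested, 1 was called in a comparison of cHet with control: Mknk2, a kinase that phosphorylates eIF4E, was higher in T532M cHet monosomes by 0.41 ± 0.09 (adjusted p = 0.0335), at 62.1, 70.8 and 65.5 CPM in control and 86.3, 88.1 and 89.4 CPM in cHet. That comparison called 1.03% of all genes.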

How the data were processed

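The authors deposited raw counts of read pairs per gene for 36 libraries. Per the file headers, featureCounts 2.0.3 assigned pairs to gene spans with their introns, reverse-stranded, using GENCODE M25 (GRCm38). The submitters' processing notes also name STAR 2.7.11a, FastQC 0.11.7, Subread 2.0.3 and DESeq2 1.34.0. The authors' deposited tables give a log2 fold change, p-value and adjusted p-value per gene.

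Counts were tested by the quasi-likelihood method of edgeR 4.0.16 under R 4.3.3, after TMM scaling and filterByExpr, with Benjamini-Hochberg adjustment over all genes and a threshold of 0.05, with 1 fit of 18 libraries per cross and 1 of all 36 for differences between crosses. The fits were tested on simulated data. Levels are CPM from TMM library sizes; fold changes are edgeR's, and SE derives from the fold change and its F statistic. DESeq2 1.42.0, other scaling, no filter, left-out pools and replicate blocks were tried. The p-values of the main fits measure the spread between libraries of a group, estimated over all groups of a fit. These fits hold no pool term, so fractions of 1 pool count as independent. The labels name no litters or days. Fractions of 1 genotype and number were read as 1 pool, since input was taken from the lysate loaded; their deviations correlated above 0.1 in 10 of 18 pairs (LoF) and 17 of 18 (T532M). Control and cHet pools were not paired by number in the main fits, and the labels give no source for such a pairing. A block for the number was tried as an alternative. Its result is given for T532M monosomes, where all 3 pairs correlated above 0.1. Pools that supply all fractions would be paired in every fraction or in none.

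Members and lists were chosen with earlier results of these data known. Named members were, per role group, the highest and lowest in polysome over monosome, all members of groups of 5 or fewer, the paralog pairs and, by genotype, the 3 smallest p. Coding lengths, leaders, GC content, translated identity and start codons came from GENCODE M21 principal transcripts (GRCm38), in place of the planned RefSeq proteins; start sites are RefSeq's.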

Additional observations from a re-analysis of the deposited data

How the results depend on the processing

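The counts of members called in the 6 comparisons of control fractions stayed within 1.5 times under each alternative run, and 36 of 38 called members (LoF) and 37 of 39 (T532M) kept direction and call in polysome against monosome in each of them; the exceptions were Eif1ax and Eif3g, and Eif2a and Eif5. DESeq2 also called Eif4b (0.27), Eif2a (0.379) and Eif5 (0.45) higher in LoF polysomes and Eif4b (0.336) in T532M polysomes, and Eif3e was called lower in T532M controls without control pool 2 (-0.385). In the comparisons where no member was called, LoF input gave 3 without a filter (Eif2s2, Eif5a2, Eif5) and 1 with DESeq2. Without the 3 pools with Ttr, LoF monosomes gave 3 and the LoF change from monosome to polysome 2. T532M monosomes gave 3 with DESeq2, 1 with the number as a replicate block, and 0 to 4 when a pool was left out. The cross difference in input gave 2 without a filter, 2 with DESeq2 and 0 to 3 when a pool was left out (LoF cHet 2, T532M control 2 or T532M cHet 3). In these settings the calls over all genes rose as well: to 3.05% without a filter in LoF input, to 1.07% without the Ttr pools in the LoF change from monosome to polysome, and in the cross difference to 3.48% without a filter and to 4.12%, 8.71% and 3.44% without the 3 pools named. The causes were not tested. Uncalled members that changed sign in polysome against monosome were, in LoF controls, Eif3j2 (-0.12 to 0.308 when a control pool was left out) and Eif4b (-0.0153 without the Ttr pools). In T532M controls they were Eif2s2 (0.0421 with DESeq2 size factors and with DESeq2, -0.135 to 0.0499 when a control pool was left out), Eif3j1 (0.0598 with the size factors, 0.0599 with DESeq2, 0.00524 with only the 2 groups in the fit, -0.0476 to 0.0712 when a control pool was left out) and Eif3j2 (-0.231 to 0.103 when a control pool was left out).

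Control and cHet pools of the same number correlated above 0.1 in 1 of 9 pairs (LoF) and 6 of 9 (T532M), and all 3 pairs of a fraction did so in T532M monosomes only. There the number as a replicate block in edgeR moved the count of members called from 0 to 1 (Eif2s3x, -0.44, adjusted p = 0.0405). The same pools supply every fraction, and the main fits do not pair them by number. Between fractions, a library matched its own number best in 19 of 36 and 28 of 36 checks. The pool as a block changed no call in polysome against monosome, and no block moved another count of members by over 1.5 times. Eif3j2, with few read pairs, had the widest error among the members in each LoF comparison, and Eif4ebp1 in each T532M comparison.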
